A study of Rattus norvegicus with 12 samples.

Results

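The genes described here carry glucose into the cell, break it down to pyruvate and lactate, and store it as glycogen. They were taken from a list of 34 gene symbols, and a gene was measured where a probe set of the array was annotated with that symbol and no other. Of the 34, 32 were measured, out of 14324 genes named in this way. Hk1 and Ppp1r3c were not analysed here. RNA came from heart muscle cells of rat pups aged 2 days (strain Sprague-Dawley, all of 1 litter), isolated enzymatically. After 3 days in culture the monolayers were kept for 3 days in 0.1% DMSO alone, as control, or in 50 µg/mL DEHP carried in 0.1% DMSO, with 6 arrays in each group. DEHP, di(2-ethylhexyl) phthalate, is a plasticizer of flexible medical plastics, and the comparison asks what it changes at a concentration that the study calls clinically relevant.

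Glucose enters cardiomyocytes through the transporters GLUT1 and GLUT4 and is trapped as glucose 6-phosphate by hexokinase. From there it is either stored as glycogen or split by glycolysis into pyruvate, which lactate dehydrogenase converts to and from lactate, and monocarboxylate transporters pass lactate across the membrane. Many steps are served by isoforms from different genes. After birth the rat heart turns from glucose and lactate towards fatty acids as its main fuel.

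Each deposited value is the ratio of an array's signal to the probe set's own median over the 12 arrays, so a value of 1 is the middle of the arrays. The ratios show differences between arrays but hold no level, so the abundance of one gene cannot be set against another's, and the presence of the labelled cell type cannot be checked by its markers' levels. Log2 folds are DEHP over control ± SE (n = 6 arrays per group) from a limma fit, and a gene "passed" where its Benjamini-Hochberg adjusted p over all probe sets was under 0.05. The log2 ratios of most arrays had an SD over all probe sets of 0.15 to 0.19. Control replicate 5, at 0.37, and DEHP replicate 6, at 0.27, were wider. Results that depend on one of them are given with and without it.

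Under DEHP, 15 of the 32 genes rose, 3 fell and 14 did not pass. The 15 are 46.9% of the members, where 14.4% of all genes rose, and the 3 are 9.38%, close to the 10.2% of all genes that fell. The members were chosen with earlier results of these data known, and the difference in shares was not tested. In either direction, 24.6% of all genes passed. The median log2 fold of the 32 was 0.19, against −0.018 for all genes. The 6 DEHP values lay apart from the 6 control values in 16 members, 50% of them, against 16.9% of all genes. In 2 of the 16, Eno1 and Pkm, this holds for the lowest-numbered probe set and not for the one beside the gene's own neighbours, described later, which leaves 14. Rises were found in glucose transport, the first steps of glycolysis, lactate exchange and glycogen metabolism. The 3 that fell, Eno3, Pkm and Ldha, encode enzymes of the last steps towards lactate. Log2 folds past 1.5-fold were seen in 7 members upwards and 0 downwards, where 2.94% of all genes were past it upwards and 2.81% downwards. At an unadjusted p under 0.05, the threshold given for some groups and lists below, 20.6% of all genes were higher and 14.9% lower.

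**Figure D1:**
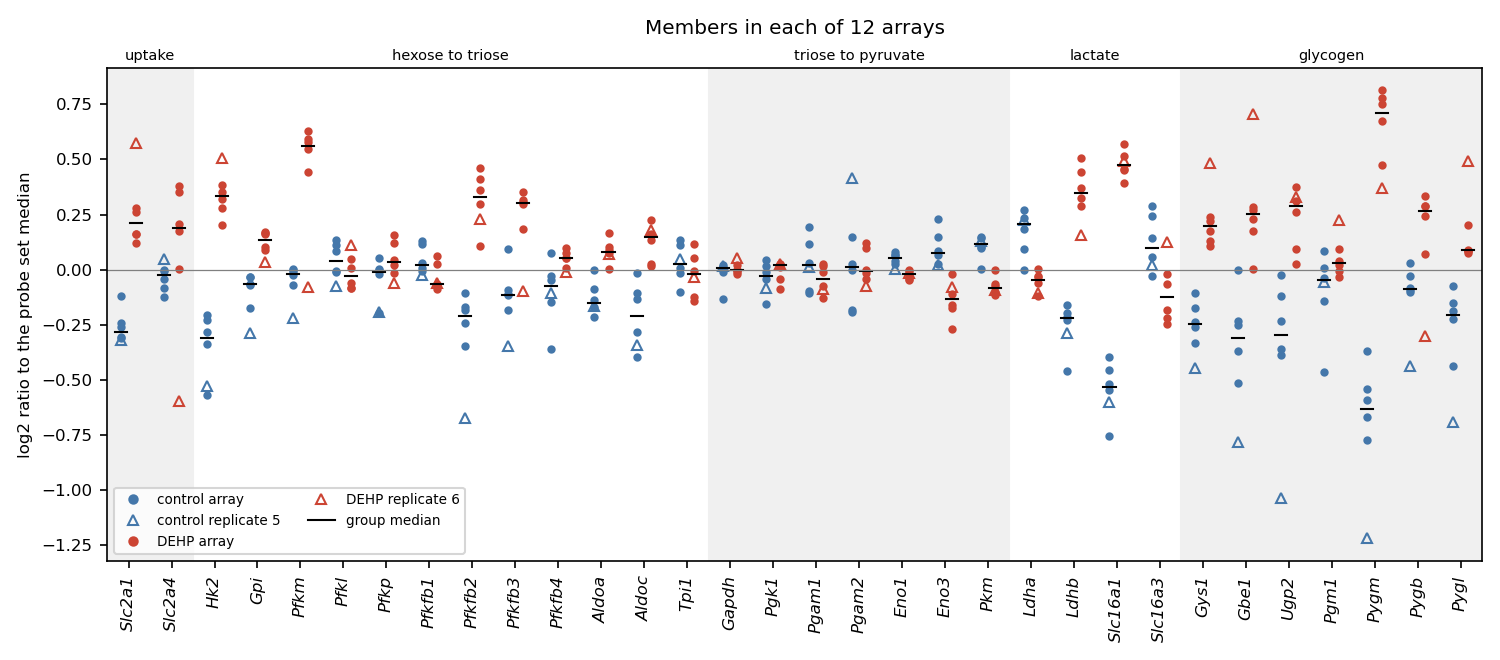
Log2 ratio of each of the 32 measured members (x axis, in pathway order) in every array, as the ratio to the probe set's median over 12 arrays; black bars are group medians and triangles mark control replicate 5 and DEHP replicate 6. The groups lie apart for Slc16a1 and Pygm and overlap for Gapdh and Pgk1.

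**Figure D2:**
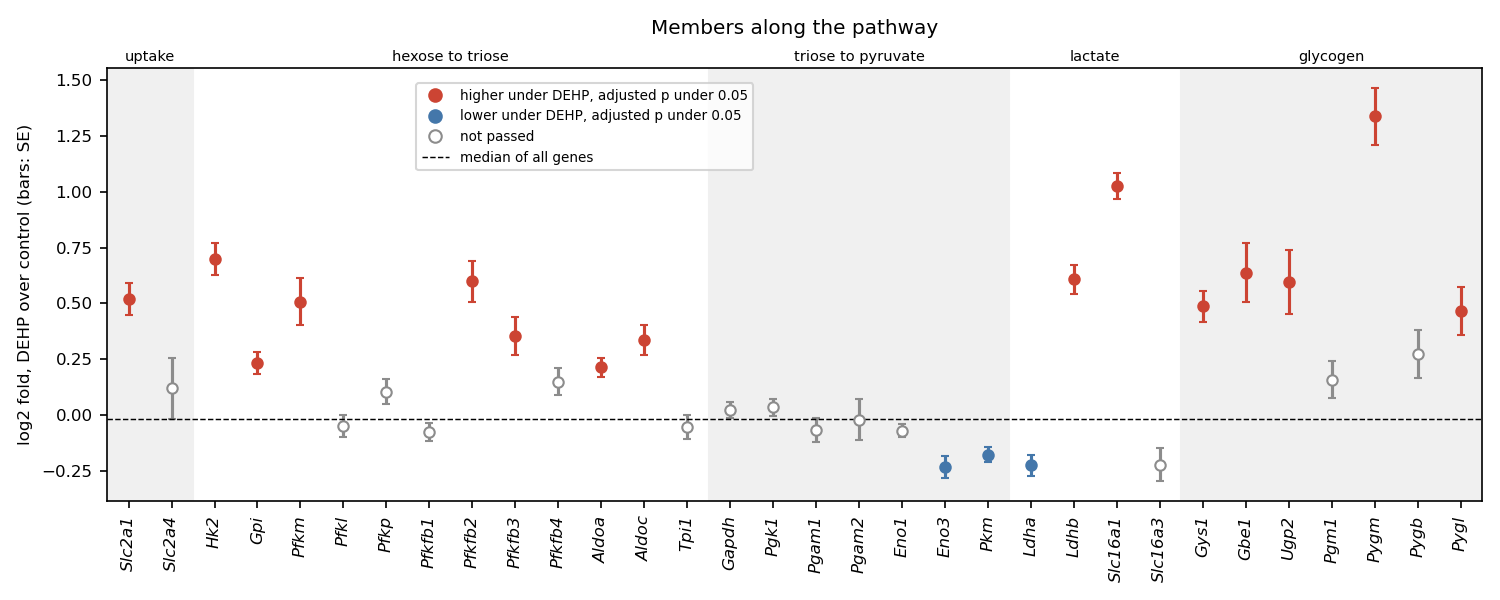
Log2 fold of DEHP over control for each member, with bars for the SE of the limma fit (n = 6 arrays per group); filled points passed an adjusted p of 0.05 and the dashed line is the median of all genes. Pygm, at 1.34, and Slc16a1, at 1.03, are the highest, and Eno3, Pkm and Ldha are the filled points below the line.

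Markers of other cell types in such cultures changed in the same arrays, and their part in these results was not tested. All 9 measured smooth muscle markers fell, and the mean of their log2 ratios ran from 0.60 to 0.76 in control arrays and from −1.18 to −0.59 under DEHP. Of 15 cardiomyocyte markers 4 rose and 6 fell, 26.7% and 40% of them, where 14.4% of all genes rose and 10.2% fell. Their array mean ran from −0.10 to 0.11 in controls and from −0.024 to 0.21 under DEHP, except in DEHP replicate 6, where it was −0.39. Among 10 fibroblast markers 4 rose and 5 fell (40% and 50%), with means of −0.063 to 0.083 in controls and −0.26 to 0.015 under DEHP. Without control replicate 5 and DEHP replicate 6 these means ran from 0.0099 to 0.083 and from −0.062 to 0.015. Among 7 endothelial markers 3 rose and 1 fell, 42.9% and 14.3% (means −0.23 to 0.078 and −0.27 to 0.41). The −0.27 was DEHP replicate 6, and the other DEHP arrays, at 0.082 to 0.41, lay above every control array. Among 8 leukocyte markers 3 rose and 1 fell, 37.5% and 12.5% (means −0.35 to 0.050 and −0.051 to 0.13). The −0.35 was control replicate 5, and the other control arrays ran from −0.20 to 0.050. Of 4 erythroid markers 0 passed limma, with 0 higher and 1 lower at an unadjusted p under 0.05 (means −0.0097 to 0.26 and −0.12 to 0.078). The 0.26 was control replicate 5, and the other control arrays reached 0.085. In cultures measured whole, fewer cells of a type and less RNA per cell cannot be told apart.

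Of the glucose transporters, Slc2a1 rose and Slc2a4 did not pass. Slc2a1 encodes GLUT1, which carries glucose without need of insulin. Its ratios were 0.802 to 0.921 (median 0.822) in controls and 1.09 to 1.49 (median 1.16) under DEHP. The groups did not overlap, and the log2 fold was 0.52 ± 0.071 (1.43-fold, adjusted p = 0.000193). Slc2a4 encodes GLUT4, the transporter that insulin and contraction bring to the surface of muscle cells. Its control ratios were close together, at 0.917 to 1.03 (median 0.983), whereas those under DEHP spread over 0.660 to 1.30 (median 1.14). The lowest value was that of DEHP replicate 6, the array in which Slc2a1 was highest. Over all arrays Slc2a4 had a log2 fold of 0.12 ± 0.14 (adjusted p = 0.607), and without DEHP replicate 6 it was 0.26 and passed (adjusted p = 0.0165).

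Hexokinase and glucose phosphate isomerase open glycolysis, and both measured genes rose. Hk2, the hexokinase of insulin-responsive tissues, had ratios of 0.674 to 0.868 (median 0.807) in controls and 1.15 to 1.42 (median 1.26) under DEHP, with no overlap. Its log2 fold was 0.70 ± 0.072 (1.62-fold, adjusted p = 1.71e-05). Gpi, which turns glucose 6-phosphate into fructose 6-phosphate, lay at 0.818 to 0.978 (median 0.955) in controls and 1.02 to 1.13 (median 1.10) under DEHP. The groups of Gpi were apart but near each other, with a log2 fold of 0.23 ± 0.049 (adjusted p = 0.00477).

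Phosphofructokinase catalyses the committed step of glycolysis, and of its 3 subunit genes Pfkm passed. Pfkm, the muscle subunit, had control ratios of 0.859 to 1.001 (median 0.987) and DEHP ratios of 0.946 to 1.55 (median 1.48). Of the DEHP arrays 5 lay above every control array, and DEHP replicate 6 lay among the controls. Its log2 fold was 0.51 ± 0.11 (1.42-fold, adjusted p = 0.00422), and 0.61 without DEHP replicate 6 (adjusted p = 3.77e-06). The liver subunit gene Pfkl was at −0.049 ± 0.049 (adjusted p = 0.556) and the platelet subunit gene Pfkp at 0.10 ± 0.056 (adjusted p = 0.256). Both had overlapping groups, with ratios of 0.943 to 1.10 over all arrays for Pfkl and 0.871 to 1.12 for Pfkp.

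Fructose 2,6-bisphosphate activates phosphofructokinase, and the 4 Pfkfb genes encode the enzymes that make and remove it. Pfkfb2, the heart form, lay at 0.626 to 0.928 (median 0.863) in controls and 1.08 to 1.38 (median 1.26) under DEHP. The groups did not overlap, with a log2 fold of 0.60 ± 0.093 (1.52-fold, adjusted p = 0.000480). Pfkfb3, an inducible form with high kinase activity, also rose, by 0.35 ± 0.084 (adjusted p = 0.00978). Its control ratios were 0.786 to 1.07 (median 0.924) and its DEHP ratios 0.936 to 1.28 (median 1.23), with DEHP replicate 6 again among the controls. Pfkfb4 (0.15 ± 0.061, adjusted p = 0.124) and Pfkfb1, known from liver and skeletal muscle (−0.077 ± 0.042, adjusted p = 0.261), did not pass. Without control replicate 1 Pfkfb4 was at 0.18 and passed (adjusted p = 0.0439), as it did over all arrays with array weights (adjusted p = 0.0374).

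Both aldolase genes, whose enzymes split fructose 1,6-bisphosphate, rose. Aldoa, the muscle form, had ratios of 0.862 to 0.999 (median 0.899) in controls and 1.001 to 1.12 (median 1.06) under DEHP, a log2 fold of 0.21 ± 0.042 (adjusted p = 0.00276). Aldoc, known from brain, had 0.759 to 0.990 (median 0.866) in controls and 1.0103 to 1.17 (median 1.11) under DEHP, a log2 fold of 0.34 ± 0.068 (adjusted p = 0.00342). In both genes the groups were adjacent without overlapping.

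From triose phosphate isomerase onwards no glycolytic member rose. Of the 8 genes from hexokinase to Tpi1, 5 rose and 0 fell, and of the 7 from Gapdh to Pkm, 0 rose and 2 fell. At an unadjusted p under 0.05 in limma the first 8 had 5 higher and 0 lower, and the last 7 had 0 higher and 3 lower, against 20.6% higher and 14.9% lower of all genes. This division of the pathway was chosen after the values were seen and was not tested. It covers the listed members only. Outside them, the enolase gene Eno2 rose by 0.55 and Bpgm by 0.25, as described later. Pgk2, Gapdhs and Pklr, named after their values were seen, did not pass. Tpi1, triose phosphate isomerase, was at −0.054 ± 0.055 (adjusted p = 0.564). Gapdh, a common reference gene in expression work, was at 0.022 ± 0.034 (adjusted p = 0.714), and Pgk1, which makes the first ATP of the pathway, at 0.033 ± 0.040 (adjusted p = 0.628). The ratios of Gapdh stayed within 0.912 to 1.04 in all 12 arrays, and those of Pgk1 within 0.897 to 1.03. Without control replicate 3, the array with the lowest Gapdh, its log2 fold was −0.0015. The phosphoglycerate mutase genes Pgam1 (−0.069 ± 0.055, adjusted p = 0.459) and Pgam2, the muscle form (−0.021 ± 0.092, adjusted p = 0.907), did not pass. Pgam2 spread over 0.875 to 1.33 in the controls alone, and its sign turned with quantile normalization, with array weights, and without control replicate 5 or 6.

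Enolase and pyruvate kinase complete glycolysis. Eno3, the muscle enolase, lay at 1.02 to 1.17 (median 1.05) in controls and 0.829 to 0.985 (median 0.910) under DEHP, with no overlap. It fell by 0.23 ± 0.050 on the log2 scale (adjusted p = 0.00485). Eno1, the widely expressed enolase, had control ratios of 1.002 to 1.06 (median 1.04) and DEHP ratios of 0.968 to 0.998 (median 0.987). The groups of Eno1 did not overlap in this probe set but did in its other 2, and the log2 fold was small, −0.070 ± 0.028, and did not pass (adjusted p = 0.117), except with array weights (adjusted p = 0.0279). Pkm, which encodes pyruvate kinase M in splice forms that these values do not separate, lay at 1.001 to 1.11 (median 1.08) in controls and 0.923 to 0.999 (median 0.944) under DEHP. It fell by 0.18 ± 0.035 on the log2 scale (adjusted p = 0.00293), and the groups were apart by a narrow gap in this probe set.

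Several of these enzymes were read by more than 1 probe set. The 32 members had 52 probe sets, of which Gapdh had 16, Eno1 and Pkm 3 each and Ldha 2, and the lowest-numbered one stands for the gene above. Each probe set was checked against the genes named beside it in the order of probe set numbers, up to 10 on each side. For 31 probe sets at least 9 of these neighbours also lay within 100 genes of the gene in RefSeq, and for the other 21 the count was 0. Gapdh, Eno1, Pkm and Ldha each had 1 probe set among the gene's own neighbours, and the single probe set of Pgam1 was not among them. Rat genomes hold processed copies of several of these genes. Which sequence the 21 probe sets read was not tested, and the value for Pgam1 is uncertain. All 16 Gapdh probe sets had log2 folds between −0.012 and 0.022. Among its own neighbours Gapdh was at 0.0052 ± 0.028, Eno1 at −0.062 ± 0.028 (adjusted p = 0.170) and Pkm at −0.15 ± 0.035 (adjusted p = 0.00825), and in these probe sets the groups of all 3 genes overlapped. For Ldha that probe set is the lowest-numbered one, at −0.23 ± 0.048 (adjusted p = 0.00501), and the other was at −0.13 ± 0.051 and did not pass (adjusted p = 0.0991). Without control replicate 5 that other probe set was at −0.17 and passed in limma (adjusted p = 0.0102). Without DEHP replicate 6 it did not pass (adjusted p = 0.0919).

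**Figure D3:**
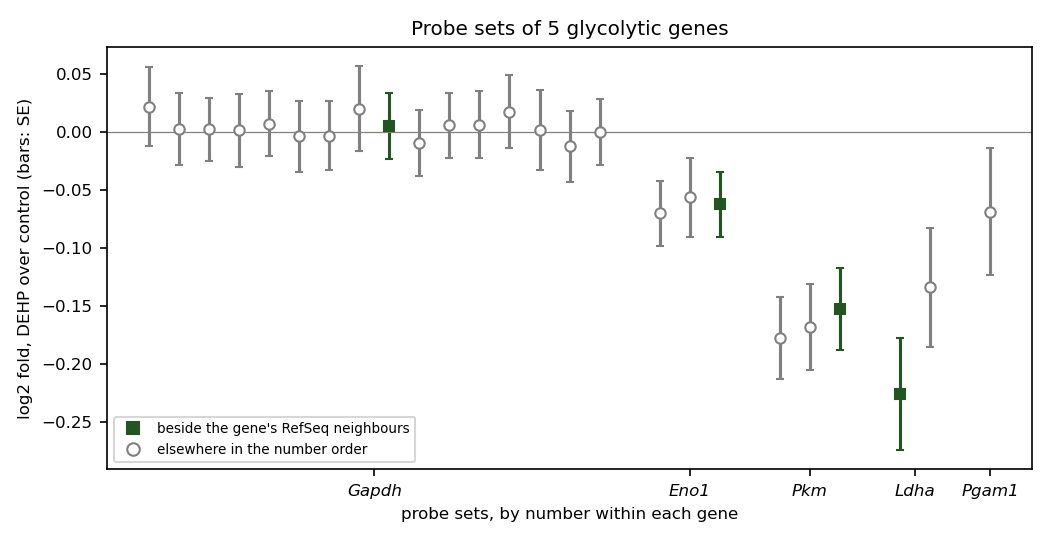
Log2 fold of DEHP over control for every probe set of Gapdh, Eno1, Pkm, Ldha and Pgam1, in the order of their numbers, with bars for the SE (n = 6 arrays per group); filled squares lie beside the gene's RefSeq neighbours in the number order. The 16 Gapdh probe sets lie between −0.012 and 0.022, and both Ldha probe sets lie below 0.

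The upstream sequences of Ldha and Ldhb, whose folds had opposite signs, and of Slc16a1 and Pygm, which had the highest folds, are shown so that they can be set side by side. They are the 250 bases before the RefSeq start in the GRCr8 assembly, 5′ to 3′ on the gene's strand. Capitals mark ACGTG or its reverse complement CACGT, the core shared by hypoxia response elements and many E-boxes, and AGGTCA or its reverse complement TGACCT, the core bound by many nuclear receptors.
Ldha promoter, chr1:106507842-106508091, plus strand: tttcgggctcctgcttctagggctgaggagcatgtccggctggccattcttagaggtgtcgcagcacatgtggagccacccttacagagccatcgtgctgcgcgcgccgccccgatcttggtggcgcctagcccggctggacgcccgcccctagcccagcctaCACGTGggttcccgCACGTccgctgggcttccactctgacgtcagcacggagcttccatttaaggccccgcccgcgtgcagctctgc
Ldhb promoter, chr4:177177409-177177658, minus strand: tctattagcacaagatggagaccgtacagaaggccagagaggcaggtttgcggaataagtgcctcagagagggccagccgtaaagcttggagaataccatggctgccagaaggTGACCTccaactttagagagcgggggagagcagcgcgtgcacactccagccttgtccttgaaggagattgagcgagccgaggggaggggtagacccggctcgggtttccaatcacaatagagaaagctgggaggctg
Slc16a1 promoter, chr2:194812410-194812659, plus strand: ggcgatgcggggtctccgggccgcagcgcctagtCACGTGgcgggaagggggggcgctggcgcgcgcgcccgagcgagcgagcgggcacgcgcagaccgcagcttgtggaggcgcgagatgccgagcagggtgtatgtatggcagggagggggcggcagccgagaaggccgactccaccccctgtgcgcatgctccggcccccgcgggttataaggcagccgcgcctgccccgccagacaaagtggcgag
Pygm promoter, chr1:213119555-213119804, plus strand: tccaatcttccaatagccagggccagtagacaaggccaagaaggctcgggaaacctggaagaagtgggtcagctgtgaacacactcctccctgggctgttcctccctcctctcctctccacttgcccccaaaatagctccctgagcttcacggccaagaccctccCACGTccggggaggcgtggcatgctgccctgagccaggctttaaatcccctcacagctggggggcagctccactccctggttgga
The Ldha window held ACGTG or CACGT beginning at −87, −86 and −73 from the start, the first pair overlapping as CACGTG, and 0 of AGGTCA. The Ldhb window held 0 of ACGTG and 1 of AGGTCA, beginning at −137. Slc16a1 held an overlapping pair beginning at −216 and −215, and Pygm 1 match beginning at −85. The RefSeq table held windows for 32 of the 34 listed genes, 36 windows in all, of which 16 held ACGTG and 4 held AGGTCA on either strand. These are not the 32 measured members: Hk1 and Ppp1r3c had windows, both genes with ACGTG, and Slc2a4 and Pgk1 had none. Over all 33465 windows of this length the shares were 16.6% and 14.1%. A match of letters is a description and was not related to the folds.

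Ldhb encodes the heart subunit of lactate dehydrogenase, which favours turning lactate into pyruvate, and Ldha the muscle subunit, which favours making lactate. Ldhb ratios were 0.726 to 0.896 (median 0.858) in controls and 1.12 to 1.42 (median 1.27) under DEHP, with no overlap. Its log2 fold was 0.61 ± 0.065 (1.52-fold, adjusted p = 2.28e-05). Ldha lay higher in controls, at 0.999 to 1.21 (median 1.15), than under DEHP, at 0.920 to 1.001 (median 0.968). It fell by 0.23 ± 0.048 on the log2 scale (adjusted p = 0.00501), and the groups overlapped only through the lowest control and the highest DEHP array.

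Slc16a1 encodes MCT1, a monocarboxylate transporter that takes up lactate and pyruvate in the heart. It had the smallest p of the 32 members. Its ratios were 0.592 to 0.760 (median 0.691) in controls and 1.32 to 1.48 (median 1.39) under DEHP. The spread within each group was small beside the gap, with a log2 fold of 1.03 ± 0.057 (2.04-fold, adjusted p = 1.05e-07). Slc16a3 encodes MCT4, known for lactate export from glycolytic cells. It lay at 0.980 to 1.22 (median 1.07) in controls and 0.843 to 1.09 (median 0.917) under DEHP, with overlapping groups. Its log2 fold of −0.22 ± 0.074 did not pass (adjusted p = 0.0536). Over all arrays it was −0.26 with quantile normalization and −0.30 with array weights, and passed in both (adjusted p = 0.0402 and 0.00320). Without control replicate 5, control replicate 6 or DEHP replicate 6 the adjusted p was 0.0407, 0.0399 and 0.0145, and over each of the 12 arrays left out it reached 0.122.

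Glycogen genes rose in 5 of 7 cases, with 0 lower and 2 not passing. At an unadjusted p under 0.05 limma had 6 higher and 0 lower, against 20.6% and 14.9% of all genes. Pygm, the muscle glycogen phosphorylase that releases glucose 1-phosphate from glycogen, had the largest log2 fold of the 32 members, 1.34 ± 0.13 (2.53-fold, adjusted p = 8.51e-06). Its ratios were 0.429 to 0.774 (median 0.645) in controls and 1.29 to 1.76 (median 1.64) under DEHP. The lowest control was replicate 5 and the lowest DEHP array was replicate 6, and without both the log2 fold was 1.29. Pygl, the liver phosphorylase, also rose, by 0.47 ± 0.11 (adjusted p = 0.00754), with ratios of 0.619 to 0.951 (median 0.867) in controls and 1.05 to 1.41 (median 1.06) under DEHP. Its highest value was in DEHP replicate 6, while the other DEHP arrays were close together. Without that array and control replicate 5 the log2 fold of Pygl was 0.32. Pygb, the brain phosphorylase, was at 0.27 ± 0.11 (adjusted p = 0.116). DEHP replicate 6 had its lowest DEHP ratio, 0.812 against 1.05 to 1.26 in the others, and without that array Pygb was at 0.36 and passed (adjusted p = 0.00672). Over all arrays Pygb also passed with quantile normalization (adjusted p = 0.0467) and with array weights (adjusted p = 0.00468).

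The synthase, the branching enzyme and the enzyme that supplies their substrate rose as well. Gys1, the muscle glycogen synthase, lay at 0.732 to 0.929 (median 0.841) in controls and 1.08 to 1.40 (median 1.15) under DEHP, a log2 fold of 0.49 ± 0.071 (adjusted p = 0.000316). Gbe1, the branching enzyme, rose by 0.64 ± 0.13 (1.56-fold, adjusted p = 0.00406). Its control ratios of 0.581 to 0.999 (median 0.807) reached almost to the DEHP ratios of 1.001 to 1.63 (median 1.19). Ugp2, which makes the UDP-glucose that the synthase uses, rose by 0.59 ± 0.14 (1.51-fold, adjusted p = 0.0106), with ratios of 0.487 to 0.983 (median 0.814) in controls and 1.02 to 1.30 (median 1.22) under DEHP. Control replicate 5 was the lowest array for Gys1, Gbe1 and Ugp2, and DEHP replicate 6 the highest for Gys1 and Gbe1. Without both arrays the log2 folds were 0.40, 0.47 and 0.44 in the same order, and each of the 3 passed. Pgm1, which links glucose 1-phosphate to glucose 6-phosphate, did not pass (0.16 ± 0.082, adjusted p = 0.239).

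Isoforms of the same step were then compared directly, by the difference of their log2 ratios within each array. The change in that difference between groups was tested with a two-sided exact permutation test over the 12 arrays, with Benjamini-Hochberg adjustment over 13 pairs. The smallest p this design allows is 0.00216. Of the 13 pairs 10 passed, and in 4 of them the arrays of the groups did not overlap. A change in the difference shows that the isoforms changed unequally and says nothing of which is more abundant.

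Among the lactate genes, Ldhb minus Ldha went from −0.43 ± 0.12 in controls to 0.41 ± 0.12 under DEHP (SD, n = 6 each), a change of 0.83 ± 0.070 (SE, exact p = 0.00216, adjusted p = 0.00703). Every DEHP array, at 0.26 to 0.56, lay above every control array, at −0.56 to −0.21. Slc16a1 minus Slc16a3 changed by 1.25 ± 0.11 (exact p = 0.00216, adjusted p = 0.00703), with controls at −1.04 to −0.51 and DEHP arrays at 0.37 to 0.79. In glycogen breakdown, Pygm minus Pygb changed by 1.07 ± 0.081 (adjusted p = 0.00703 by the exact test), with no overlap. Pygm minus Pygl changed by 0.87 ± 0.16 (adjusted p = 0.00804 by the exact test), and there control replicate 6, at 0.070, and DEHP replicate 6, at −0.13, crossed.

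In phosphofructokinase, Pfkm minus Pfkl changed by 0.56 ± 0.14 and Pfkm minus Pfkp by 0.40 ± 0.10 (adjusted p = 0.0169 and 0.0141 by the exact test). DEHP replicate 6 lay among the controls in both. Without that array and control replicate 5 the changes were 0.68 and 0.48. Pfkfb2 changed against Pfkfb1 by 0.68 ± 0.096 with no overlap, against Pfkfb4 by 0.45 ± 0.11 and against Pfkfb3 by 0.25 ± 0.072 (adjusted p = 0.00703, 0.00804 and 0.0156 by the exact test). The last of these was 0.16 without control replicate 5 and DEHP replicate 6, with an adjusted p of 0.0516 by the exact test. Eno3 minus Eno1 changed by −0.16 ± 0.043 (adjusted p = 0.00804 by the exact test). The Eno1 probe set used there is not the one among the gene's own neighbours, and which sequence it reads was not tested.

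The remaining 3 pairs did not pass. Slc2a4 minus Slc2a1 changed by −0.40 ± 0.22 (exact p = 0.0476, adjusted p = 0.0563). DEHP replicate 6 stood at −1.18, with the remaining DEHP arrays at −0.26 to 0.26, and the change was −0.20 when it was left out. Leaving out control replicate 4 or DEHP replicate 3 gave an adjusted p of 0.0281 by the exact test, and the highest over the arrays left out was 0.113. Aldoa minus Aldoc changed by −0.12 ± 0.068 (exact p = 0.115, adjusted p = 0.124), and by −0.17 without control replicate 1, where it passed (adjusted p = 0.0256 by the exact test). Pgam2 minus Pgam1 changed by 0.048 ± 0.12 (exact p = 0.693), and by −0.014 without control replicate 1. That pair rests on the single Pgam1 probe set, whose value is uncertain.

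**Figure D4:**
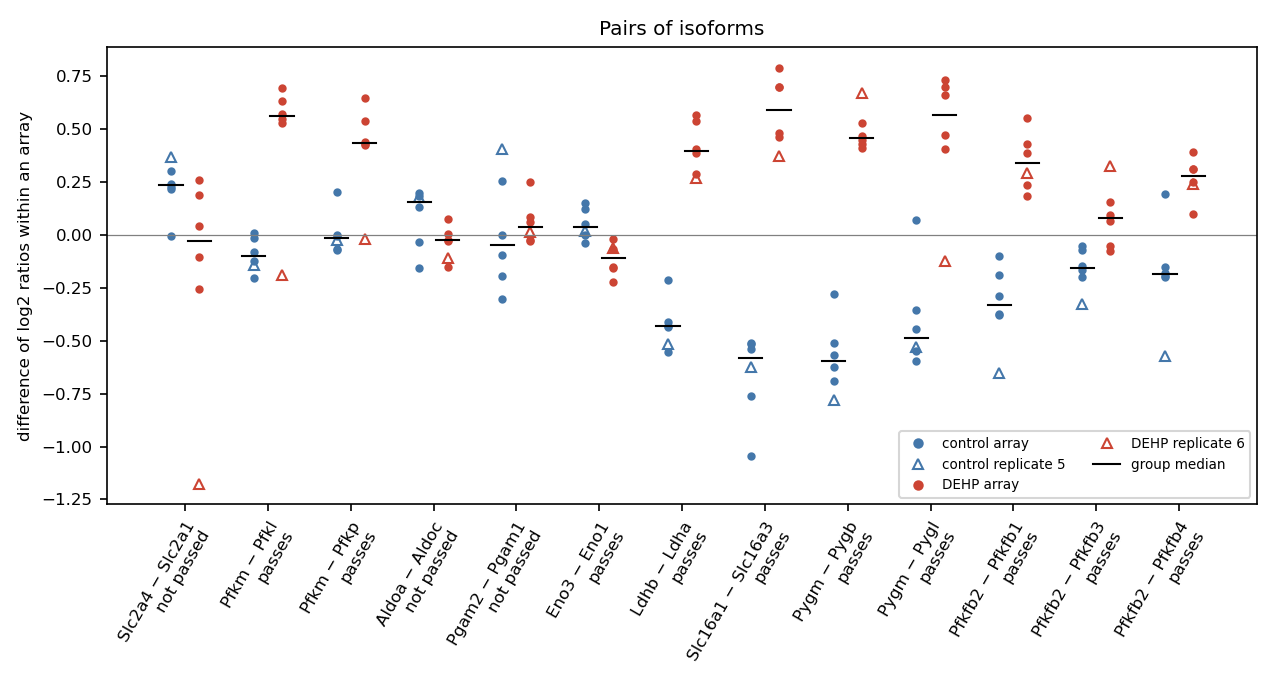
Difference of log2 ratios between 2 isoforms within each array, for 13 pairs, in control and DEHP arrays; black bars are group medians, triangles mark control replicate 5 and DEHP replicate 6, and the label gives the result of the exact permutation test at an adjusted p of 0.05. The groups lie apart for Ldhb − Ldha, Slc16a1 − Slc16a3, Pygm − Pygb and Pfkfb2 − Pfkfb1.

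Other genes of the same steps were taken from further lists. Of 12 uptake genes 3 rose and 0 fell in limma, 25% and 0% of them, with a median log2 fold of −0.069. Of all genes 14.4% rose and 10.2% fell. At an unadjusted p under 0.05 in limma 3 were higher and 1 lower, near the 20.6% and 14.9% of all genes. The 3 that rose were Slc2a12, a glucose transporter known from heart and muscle (0.63 ± 0.081, adjusted p = 0.000121), and Txnip and Arrdc4, arrestin-family proteins that restrain glucose uptake (0.51 ± 0.13, adjusted p = 0.0149, and 0.46 ± 0.095, adjusted p = 0.00418). Among 10 other glycolytic isoforms and side enzymes 3 rose and 1 fell, 30% and 10% of them, against 14.4% and 10.2% of all genes. The rises were Eno2, the neuronal enolase (0.55 ± 0.074, adjusted p = 0.000181), Hk3, a hexokinase of blood cells (0.27 ± 0.060, adjusted p = 0.00663), and Bpgm, the bisphosphoglycerate mutase (0.25 ± 0.058, adjusted p = 0.00887). Adpgk, an ADP-dependent glucokinase named here after its value was seen, fell by 0.29 ± 0.078 on the log2 scale (adjusted p = 0.0180).

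Of 6 further genes of lactate and pyruvate transport, 0 rose and 1 fell in limma (1 higher and 1 lower at an unadjusted p under 0.05). These counts are near the shares of all genes, 14.4% and 10.2%, and 20.6% and 14.9% at the unadjusted p. Mpc2, a subunit of the mitochondrial pyruvate carrier, fell by 0.18 ± 0.055 on the log2 scale (adjusted p = 0.0361). Its adjusted p was 0.0512 to 0.0753 without any one of control replicates 2, 3, 4 and 6 or DEHP replicates 2, 4, 5 and 6. The monocarboxylate transporter genes Slc16a7 (0.25 ± 0.094, adjusted p = 0.0860) and Slc16a8 (−0.21 ± 0.12, adjusted p = 0.267) did not pass, though Slc16a7 had an adjusted p of 0.0171 without DEHP replicate 5, and of 0.0431 with quantile normalization and 0.00464 with array weights. Of 17 further glycogen genes 4 rose, 23.5% of them against 14.4% of all genes, and 0 fell. At an unadjusted p under 0.05 in limma 6 were higher and 0 lower, against 20.6% and 14.9% of all genes. The median log2 fold of these genes was 0.0067. Those that rose are given next. Phkg2 (0.33 ± 0.071, adjusted p = 0.00461) and Phkb (0.37 ± 0.083, adjusted p = 0.00677) encode subunits of the kinase that activates phosphorylase. Ppp1r3a, which targets protein phosphatase 1 to glycogen, rose by 0.34 ± 0.082 (adjusted p = 0.01), and Ppp1r3b, a related targeting subunit named after its value was seen, by 0.39 ± 0.094 (adjusted p = 0.0112).

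Among 16 regulators of glucose use 9 rose, 56.2% of them against 14.4% of all genes, and 0 fell. At an unadjusted p under 0.05 in limma 11 were higher and 2 lower, against 20.6% and 14.9% of all genes. Prkaa2, a catalytic subunit of AMP-activated kinase, rose by 0.93 ± 0.11 (adjusted p = 7.09e-05). Esrrg, an estrogen-related nuclear receptor, rose by 0.64 ± 0.083 (adjusted p = 0.000128). Akt2, a kinase that carries the insulin signal to GLUT4, rose by 0.29 ± 0.046 (adjusted p = 0.000558), and Klf15, a transcription factor of muscle metabolism, by 0.35 ± 0.071 (adjusted p = 0.00346). Hif1a, the hypoxia-inducible factor, rose by 0.49 ± 0.082 (adjusted p = 0.000833), and DEHP replicate 6 was its highest array. Of 13 known hypoxia-responsive genes outside glycolysis 3 rose, 1 fell and 9 did not pass, with a median log2 fold of 0.086. The shares were 23.1% and 7.69%, against 14.4% and 10.2% of all genes. At the unadjusted p in limma 3 were higher and 2 lower, near the 20.6% and 14.9% of all genes. Ddit4, an inhibitor of mTORC1 signalling (0.85 ± 0.075, adjusted p = 4.47e-06), and Vegfa, a vascular growth factor (0.62 ± 0.056, adjusted p = 5e-06), rose, as did Ndrg1, named after its value was seen (0.37 ± 0.080, adjusted p = 0.00562). P4ha1, a collagen prolyl hydroxylase, fell by 0.39 ± 0.066 on the log2 scale (adjusted p = 0.00104).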

How the data were processed

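RNA from 6 control and 6 DEHP cultures was measured on Affymetrix arrays. The submitters' processing notes name RMA, without a version. What the authors deposited are linear ratios to the probe set's median: the median log2 ratio of every probe set lay within 1e-06 of 0. Precision is limited by the number of arrays. Log2 of the ratio was used without further normalization. Of 27342 probe sets, 15097 had 1 gene symbol, 323 several and 11922 none. Of their identifiers 15067 matched the RefSeq table of GRCr8, and 0 symbols changed. A gene with several probe sets took its lowest-numbered one.

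DEHP was compared with control by limma 3.58.1 in R 4.3.3 (lmFit, eBayes, two-sided), with Benjamini-Hochberg adjustment over all 27342 probe sets. Tested on simulated arrays of 27342 probe sets, 200 of them changed, this fit recovered 73% at a log2 fold of 0.5 and 99% at 1. Of its 178 calls 6 were false. The simulated noise was normal and independent between probe sets, with no array wider than the others. A far smaller share was changed than passed in these data, so the rates need not hold for them. The labels call the cultures biological replicates and all cells came from 1 litter, so p-values measure the spread between these cultures. The members, isoform pairs and gene lists were chosen with earlier results of these data known. All measured members are named, with the 3 genes of smallest p in each further list, and Txnip, Hif1a and Klf15. Of 14 listed pairs, the one with Hk1 was not analysed here. Alternatives were median centring, quantile normalization, robust eBayes, array weights, a replicate block, a minimum fold of 1.2, an adjusted p under 0.01, the mean of a gene's probe sets, each array left out, and control replicate 5 and DEHP replicate 6 left out together. One more, the probe set beside the gene's own neighbours, was chosen after seeing the data. Exact tests used scipy 1.17.1, and plots matplotlib 3.10.9.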

Additional observations from a re-analysis of the deposited data

Results flagged for a closer look

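In 152 groups of 6 log2 ratios, from members, further named genes and isoform pairs, 24 had an array whose gap to the nearest of the others was more than 0.625 of the group's range, Dixon's critical value. Chance alone gives about 1 in 20, and the groups share arrays. DEHP replicate 6 accounted for 11 of the 24 and control replicate 5 for 7. The cause was not tested.

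DEHP replicate 6 was high for Slc2a1 (0.58 against 0.12 to 0.28 in the rest of its group), Gys1 (0.48 against 0.11 to 0.24), Pygl (0.49 against 0.073 to 0.20), Eno2 (0.60 against 0.15 to 0.26) and Hif1a (0.57 against 0.10 to 0.21). It was low for Pfkm (−0.080 against 0.44 to 0.63), Gpd1, the cytosolic glycerol phosphate dehydrogenase (−0.50 against 0.038 to 0.16), and P4ha1 (−0.46 against −0.19 to −0.082). It was also low for the differences Slc2a4 minus Slc2a1 (−1.18), Pfkm minus Pfkl (−0.19) and Pfkm minus Pfkp (−0.019).

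Control replicate 5 was low for Pfkm (−0.22), Pygb (−0.44), Ugp2 (−1.04), Phkb (−0.46), Taldo1 (−0.34) and Rpia (−0.42), and high for G6pc1 (0.58). Control replicate 3 was low for Gapdh (−0.13) and Pkm (0.0013 against 0.096 to 0.15), and control replicate 1 high for Txnip (0.26 against −0.63 to −0.31). Control replicate 6 was high for Pfkm minus Pfkp (0.20) and Pygm minus Pygl (0.070). DEHP replicate 5 was low for Gpd2 (−0.00068 against 0.16 to 0.23).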

How the results depend on the processing

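The count of members that rose, 15, was 14 to 17 under the other settings run except a minimum fold of 1.2, which left 6. The count that fell, 3, was 3 or 4 except with array weights, which gave 5, and the minimum fold, which left 0. Leaving out each array in turn gave 15 to 17 rises, 3 to 4 falls and 10 to 11 of 13 isoform pairs. Without both control replicate 5 and DEHP replicate 6, 17 members rose, 4 fell and 9 pairs passed. Over all arrays 7 pairs had an adjusted p under 0.01. Pgam2 changed sign, to 0.025 with quantile normalization, 0.0037 with array weights and 0.073 without both arrays, and ran from −0.066 to 0.055 over the arrays left out. Over these Gapdh ran from −0.0015 to 0.029 and Pgam2 minus Pgam1 from −0.014 to 0.13, and without both arrays the latter was 0.14. These did not pass, and the cause was not tested. Deviations of same-numbered arrays correlated at 0.34, 0.13, 0.35, 0.25, 0.77 and 0.072, in the order of the replicate numbers. Of the 6 control arrays 3 correlated best with the DEHP array of their own number. Whether cultures of 1 number share a preparation was not tested, and the main fit left them unpaired. With the replicate block 15 members rose and 3 fell. Outside the members, Slc16a7 passed in limma with that block (adjusted p = 0.000805), as did Rpia (limma adjusted p = 0.0350). Ratios hold no brightness, so signal over background is unknown.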

Other observations

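Branches that leave glycolysis changed in a few genes. Of 9 genes of the hexosamine and polyol routes 3 rose and 3 fell, with a median log2 fold of 0.081. Each count is 33.3% of the list, where 14.4% of all genes rose and 10.2% fell. Sord, the sorbitol dehydrogenase that makes fructose from sorbitol, rose by 0.78 ± 0.067 (limma adjusted p = 3.88e-06). Gfpt2, a form of the first enzyme of hexosamine synthesis, rose by 0.60 ± 0.075 (adjusted p = 9.48e-05), and Pgm3, a later enzyme of the same route, fell by 0.29 ± 0.063 on the log2 scale (adjusted p = 0.00482). The others that passed, named after their values were seen, were Ogt, the O-GlcNAc transferase (0.26 ± 0.079, adjusted p = 0.0346), Gnpnat1, an acetyltransferase of the hexosamine route (−0.23 ± 0.061, adjusted p = 0.0175), and Akr1b1, an aldose reductase (−0.19 ± 0.045, adjusted p = 0.00925). Without DEHP replicate 6 Ogt was at 0.25 and did not pass in limma (adjusted p = 0.0672). Without that array and control replicate 5 Ogt was at 0.18 and passed (adjusted p = 0.0207).

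Of 7 genes of the pentose phosphate pathway 1 rose and 0 fell in limma (2 higher and 0 lower at an unadjusted p under 0.05), the rise being that of Taldo1, transaldolase (0.25 ± 0.067, adjusted p = 0.0186). That rise is 14.3% of the list, near the 14.4% of all genes. Rpia (0.22 ± 0.087, adjusted p = 0.109) and H6pd (0.11 ± 0.063, adjusted p = 0.306) did not pass, though Rpia had an adjusted p of 0.0299 with array weights. Among 7 genes of gluconeogenesis, Pc, the mitochondrial pyruvate carboxylase, rose by 0.40 ± 0.060 (adjusted p = 0.000369), and Pck2, the mitochondrial form of phosphoenolpyruvate carboxykinase, fell by 0.44 ± 0.071 on the log2 scale (adjusted p = 0.000630). Each is 14.3% of the list, near the 14.4% of all genes that rose and the 10.2% that fell. G6pc1 did not pass (−0.13 ± 0.11, adjusted p = 0.471). In the glycerol phosphate shuttle Gpd2, the mitochondrial enzyme, rose by 0.28 ± 0.062 (adjusted p = 0.00651), and Gpd1 was at 0.076 ± 0.100 (adjusted p = 0.657), or at 0.18 and passing without DEHP replicate 6 (adjusted p = 0.00650).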
